A study of Homo sapiens with 12 samples.

Results

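AFF3, NIBAN3, SIM1, UNC13C, PTPN3, AQP3, ENPP2, THSD7A, FGFR3 and RHEX are 10 genes whose signal changed strongly when doxycycline was given to Z-138 cells carrying a hairpin against NIK, and less in Maver-1 cells. They were chosen on those changes from 19775 genes named on the array, and all 10 were among the 11548 genes with enough signal to be tested. Both lines are established from human mantle cell lymphoma, which arises from B cells. Per the labels, TRAF2 has a nonsense change in Z-138 and TRAF3 is deleted in Maver-1. Each line carried a doxycycline-inducible, puromycin-selected hairpin in 3 versions: NIKsh#1 and NIKsh#2 against MAP3K14, which encodes NIK, and a non-targeting control (NTC). The 6 cultures were kept with doxycycline at 100 ng/ml, or at 0 ng/ml, until day 7, and each condition was hybridised to 1 array, 12 arrays in all. The labels do not say whether a culture came from 1 clone. In each line the groups were therefore NIKsh with doxycycline and NIKsh without it, 2 arrays each, and NTC with doxycycline and NTC without it, 1 array each.

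NIK starts the alternative NF-kB pathway, in which the precursor NFKB2 is processed and enters the nucleus with RELB. TRAF2 and TRAF3 take part in the complex that marks NIK for destruction, and B cell tumours that lose either protein can keep NIK active. The 10 genes share no known pathway. AFF3 and SIM1 are nuclear regulators of transcription, NIBAN3 is a protein of B cells, and FGFR3, AQP3, THSD7A and RHEX are membrane proteins. PTPN3 and ENPP2 are enzymes, and UNC13C prepares vesicles for release in neurons.

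Values are MAS5 signals, a linear measure of brightness per probe set, and each gene is given by the probe set with the highest mean. Changes are log2 differences of signal + 3 between a culture with doxycycline and the same culture without it, a scale that understates changes at low signal. The 12 arrays had median signals of 10.6 to 14.1, and genes whose mean over the 12 arrays was under 12.55 were not tested. All 6 measured B cell markers and both mantle cell lymphoma markers, CCND1 and SOX11, were above 12.55 on every array. In whole cultures, fewer cells that express a gene and less of its RNA per cell cannot be told apart.

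The promoters of 3 of the genes are shown as examples of a short motif of known use next to a gene described below. The motifs searched on both strands were the kappa B consensus bound by NF-kB, the TATAAA box, the CACGTG E-box and the octamer ATGCAAAT of B cell promoters. Each window is the 250 bases before a start site in RefSeq (GRCh38.p14), printed 5′ to 3′ on the strand of the gene, all 3 on the minus strand, with the motif in capitals. AFF3 lies at chr2:100105584-100105833, with a kappa B match at bases -235 to -226 of the more downstream of its 2 listed start sites. PTPN3 lies at chr9:109498308-109498557, with a kappa B match at bases -166 to -157. AQP3 lies at chr9:33447594-33447843, with TATAAA at bases -32 to -27.
AFF3: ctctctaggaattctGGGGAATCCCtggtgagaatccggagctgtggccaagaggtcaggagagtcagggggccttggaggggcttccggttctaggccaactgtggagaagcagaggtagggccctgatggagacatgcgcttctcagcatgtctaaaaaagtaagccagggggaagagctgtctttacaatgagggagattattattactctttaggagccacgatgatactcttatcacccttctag
PTPN3: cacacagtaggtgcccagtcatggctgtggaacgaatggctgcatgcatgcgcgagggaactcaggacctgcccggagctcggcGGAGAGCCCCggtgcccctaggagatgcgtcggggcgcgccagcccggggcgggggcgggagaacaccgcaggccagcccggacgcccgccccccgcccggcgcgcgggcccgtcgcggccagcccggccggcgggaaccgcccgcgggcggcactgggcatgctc
AQP3: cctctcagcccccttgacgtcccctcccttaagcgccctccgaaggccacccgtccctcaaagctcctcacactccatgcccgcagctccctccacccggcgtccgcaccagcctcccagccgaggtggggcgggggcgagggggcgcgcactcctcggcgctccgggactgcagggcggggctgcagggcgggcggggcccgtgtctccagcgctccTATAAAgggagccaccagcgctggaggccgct
The kappa B consensus was in 2 of the 16 windows of 9 of the genes and in 5.21% of all 35116 windows. TATAAA was in 2 of 16 windows and 10.7% of all, CACGTG in 2 of 16 and 6.34%, and ATGCAAAT in 0 of 16 and 1.63%. Matches not shown were CACGTG in NIBAN3 and in PTPN3, and TATAAA in PTPN3. A match is a run of letters and was not tested for binding.

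MAP3K14, the target of the hairpins, had signals of 33.3 and 49.2 in Z-138 NIKsh#1 and NIKsh#2 with doxycycline, against 55.2 and 52.0 without it. In Maver-1 the same cultures had 63.4 and 55.7 with doxycycline, against 86.9 and 79.3 without it. NTC had 55.4 with and 46.4 without doxycycline in Z-138, and 132.7 and 77.2 in Maver-1. The target was thus lower in 4 of 4 NIKsh cultures and higher in both NTC cultures, and in Z-138 NIKsh#2 the difference was small.

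Among the 10 genes, AFF3, NIBAN3, THSD7A and FGFR3 were higher with doxycycline in both Z-138 NIKsh cultures. AFF3 encodes a lymphoid member of the AF4 family, which helps RNA polymerase elongate transcripts. Its signal was 348.7 and 435.3 in Z-138 NIKsh#1 and NIKsh#2 with doxycycline, against 38.8 and 43.6 without it. The mean change was 3.15 ± 0.11 (SD, n = 2 cultures), and the groups were about an order of magnitude apart. NIBAN3, formerly BCNP1, is found in B cells and in chronic lymphocytic leukaemia. It had 354.5 and 1025.9 with doxycycline, against 85.6 and 164.4 without it, a change of 2.32 ± 0.43 (SD, n = 2 cultures). NIKsh#2 was the higher culture of NIBAN3 under both conditions, yet the groups did not overlap.

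THSD7A encodes a membrane protein of endothelial cells and of podocytes in the kidney. It had 186.0 and 188.4 in the Z-138 NIKsh cultures with doxycycline, against 16.4 and 17.8 without it, a change of 3.24 ± 0.06 (SD, n = 2 cultures). The untreated signals lay only just above the 12.55 limit. FGFR3 encodes a receptor tyrosine kinase for fibroblast growth factors that is activated by translocation in some myelomas. It had 289.2 and 207.4 with doxycycline, against 55.7 and 53.0 without it, a change of 2.11 ± 0.29 (SD, n = 2 cultures).

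**Figure D1:**
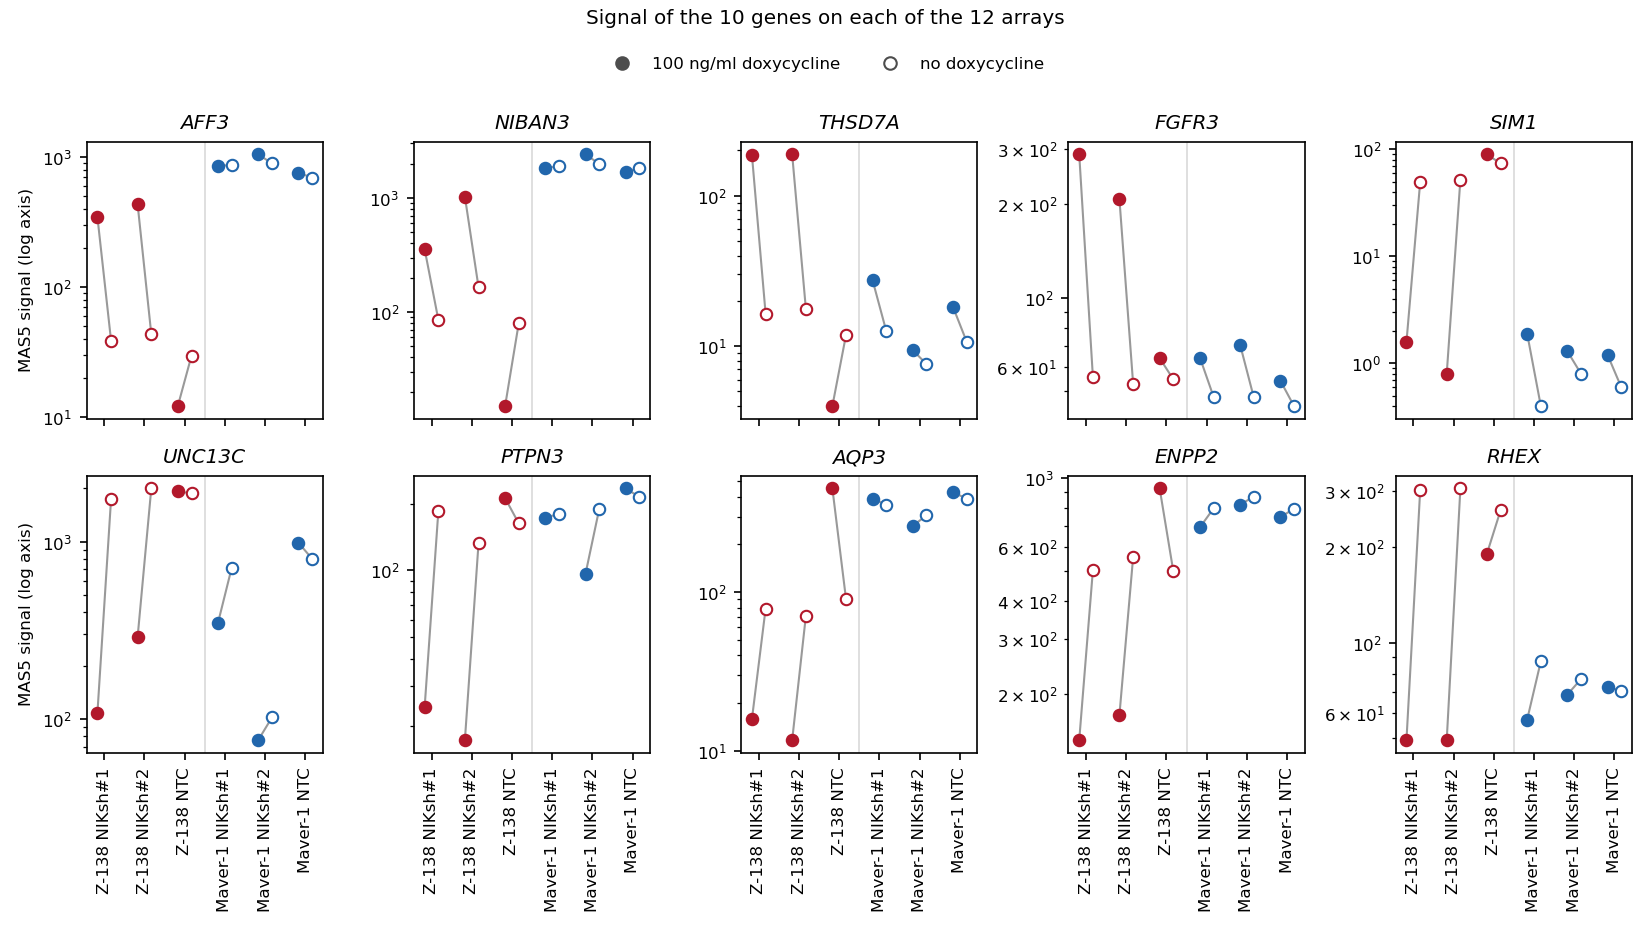
MAS5 signal (log axis, a range per panel) of each of the 10 genes in the 6 cultures, with 100 ng/ml doxycycline (filled) and without it (open), Z-138 in red and Maver-1 in blue. In Z-138 NIKsh the filled points lie above the open ones in the first 4 panels and below them in the other 6. In Z-138 NTC they lie the other way except in FGFR3 and RHEX. The NTC difference of UNC13C is 0.04 on the log2 scale, and its sign turns under quantile normalization. For SIM1, UNC13C and RHEX, another probe set has the opposite sign in Z-138 NTC to the one shown.

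The other 6 genes were lower with doxycycline in both Z-138 NIKsh cultures. SIM1, a basic helix-loop-helix factor known from the hypothalamus, had 1.6 and 0.8 with doxycycline, against 49.4 and 52.1 without it. Its treated signals were at the floor of the array, so the change of -3.68 ± 0.25 (SD, n = 2 cultures) depends on the pseudocount and was -1.96 with a pseudocount of 16. UNC13C, of the Munc13 family of vesicle priming proteins, had 107.8 and 290.1 with doxycycline, against 1742.9 and 1997.1 without it. Its change of -3.37 ± 0.85 (SD, n = 2 cultures) differed most between hairpins, at -3.98 in NIKsh#1 and -2.77 in NIKsh#2. For the other 9 genes the hairpins were at most 0.61 apart in Z-138.

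PTPN3, a tyrosine phosphatase with a FERM domain that binds the membrane skeleton, had 24.3 and 17.2 with doxycycline, against 184.7 and 133.1 without it. Its change was -2.77 ± 0.02 (SD, n = 2 cultures). ENPP2 encodes autotaxin, the secreted enzyme that makes lysophosphatidic acid and that high endothelial venules use in lymphocyte entry to lymph nodes. It had 141.3 and 170.7 with doxycycline, against 503.1 and 553.6 without it, a change of -1.75 ± 0.09 (SD, n = 2 cultures). ENPP2 had the smallest change of the 10 genes.

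AQP3, a channel for water and glycerol, had 15.9 and 11.7 in the Z-138 NIKsh cultures with doxycycline, against 78.9 and 70.6 without it. Its change was -2.22 ± 0.15 (SD, n = 2 cultures), and 1 of the treated signals lay under 12.55. RHEX, a membrane protein that takes part in erythropoietin signalling in red cell precursors, had 49.6 and 49.4 with doxycycline, against 301.7 and 306.1 without it. Its change was -2.55 ± 0.02 (SD, n = 2 cultures). In limma, a linear model across all genes, all 10 genes passed an adjusted p of 0.05 in this contrast, where 2.14% of all genes did. They had been chosen on these changes, so nothing is read from that count.

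The array holds 32 probe sets of the 10 genes, of which 21 had a mean signal of at least 12.55. All 21 had the sign of their gene in both Z-138 NIKsh cultures. That sign came from the 10 probe sets used above, so their part in the count was fixed by the choice. The other probe sets of THSD7A reached 12.55 only through the treated Z-138 NIKsh arrays, so the filter fixed their sign too. Another SIM1 probe set passed the filter through its Z-138 arrays alone. The count of 21 is therefore a description. All other probe sets read the same RNA samples as those 10. AQP3 and FGFR3 had only 1 probe set at 12.55 or above, the one used. Under 12.55 the signs were mixed, as in a probe set of AQP3 at -0.26 in NIKsh#1 and 0.56 in NIKsh#2. Averaging all probe sets of a gene, those at the floor included, moved 6 of the mean changes by over 1.5 times: AFF3 to 0.99, NIBAN3 to 1.24, FGFR3 to 1.02, AQP3 to -0.77, SIM1 to -2.17 and PTPN3 to -1.78. No sign changed.

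The Maver-1 NIKsh cultures were the other contrast of the choice, and the values there were small beside those of Z-138 but not all near 0. In limma 0 genes of all passed in Maver-1 NIKsh (0% called, 459 genes at an unadjusted p under 0.05). Of the 10 genes, 6 had a change of at least 0.5 in size in either Maver-1 NIKsh culture, where 18.9% of all genes did. That count includes SIM1 (0.53 in NIKsh#1), which was at the floor there, so that its change cannot be read. UNC13C had 349.9 and 76.2 in Maver-1 NIKsh#1 and NIKsh#2 with doxycycline, against 713.8 and 102.2 without it, changes of -1.02 and -0.41. PTPN3 had 172.2 and 96.6, against 180.2 and 188.8, so that it was lower with NIKsh#2 (-0.95) and nearly level with NIKsh#1 (-0.06). THSD7A had 27.4 and 9.4, against 12.6 and 7.6, changes of 0.96 and 0.23 close to the floor.

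FGFR3 in Maver-1 had 64.3 and 70.7 with doxycycline, against 48.1 and 47.9 without it, changes of 0.40 and 0.53. RHEX had 57.3 and 68.7, against 87.4 and 76.9, changes of -0.58 and -0.16. For these 5 genes the mean change in Maver-1 had the sign seen in Z-138 and between 14.5% and 22.0% of its size.

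AFF3, NIBAN3, AQP3 and ENPP2 stayed under 0.5 in size in both Maver-1 NIKsh cultures. AFF3 had 863.1 and 1053.3 with doxycycline, against 868.6 and 898.2 without it, and NIBAN3 had 1835.4 and 2408.4, against 1892.1 and 1987.0. AQP3 had 389.3 and 261.7, against 354.2 and 305.4. ENPP2 had 692.4 and 819.9, against 797.5 and 871.6, slightly lower in both cultures. All 4 genes were well measured in Maver-1, so their small changes there were not those of a gene at the floor.

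SIM1 was the 1 gene at the floor in Maver-1, with signals between 0.4 and 1.9 on all 6 arrays, and a change there cannot be read. THSD7A, with a mean of 14.3 over the 6 Maver-1 arrays, stood just above the 12.55 limit. SIM1 had passed the filter through its Z-138 arrays alone (mean signal 44.6 in Z-138, against 1.03 in Maver-1). The other 8 genes were above 12.55 in Maver-1 on average.

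**Figure D2:**
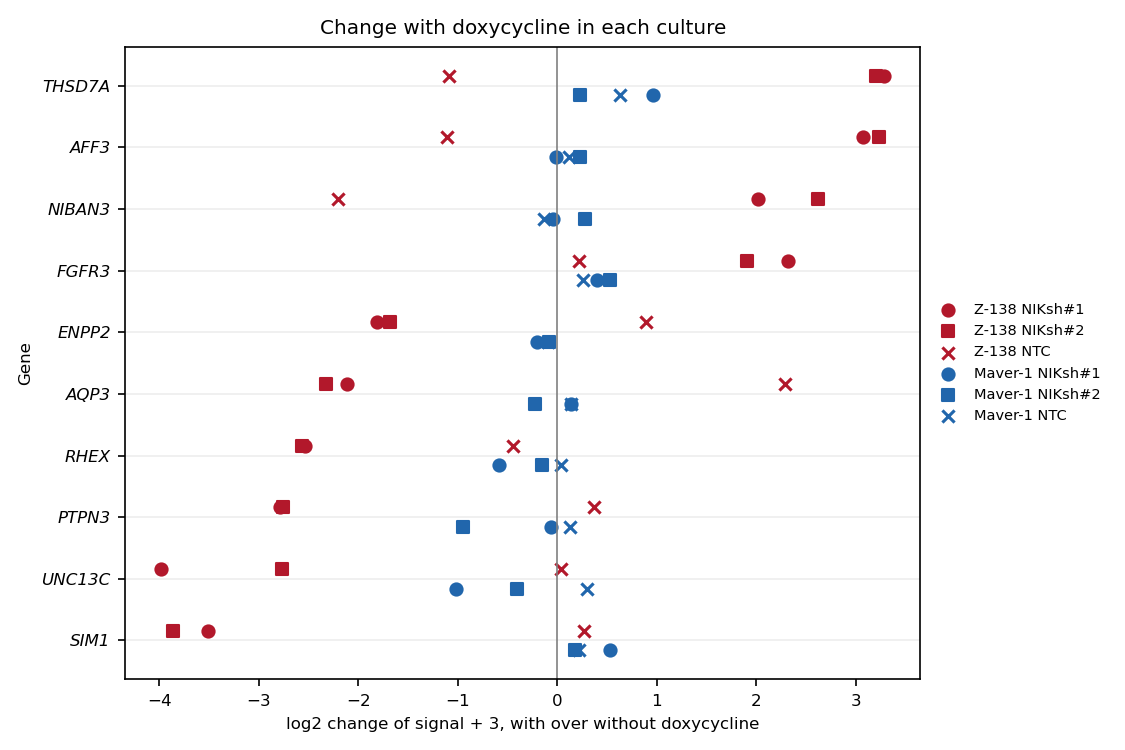
Log2 change of signal + 3 with over without doxycycline for each gene, ordered from most positive to most negative in Z-138 NIKsh. Red marks are Z-138 and blue marks Maver-1, with circles and squares for NIKsh#1 and NIKsh#2 and crosses for NTC. The red circles and squares lie beyond 1.6 in size in all 10 genes, and the red crosses of NIBAN3 and AQP3 lie on the opposite side of 0.

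The signals of the NTC cultures had no part in the choice, and these cultures asked what doxycycline and a non-targeting hairpin do to the same genes. In Z-138 NTC, 2 of the 10 genes passed limma, where 1.07% of all genes did (124 of 11548), and each moved against its NIKsh direction. NIBAN3 had a signal of 15.0 in Z-138 NTC with doxycycline, against 80.1 without it, and fell by 2.21 on the log2 scale (SE 0.26, limma adjusted p = 0.0244). AQP3 had 450.8, against 90.1, and rose by 2.29 ± 0.30 (SE, limma adjusted p = 0.0284). The treated NTC signal of AQP3 was thus above all 6 Maver-1 arrays, which ran from 261.7 to 427.2.

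Both calls rest on 1 pair of arrays, whose error comes from the spread between hairpins. NIBAN3 did not pass without the culture block (adjusted p = 0.0773), with a pseudocount of 16 (0.0502), with averaged probe sets (0.209) or without the intensity trend (0.194), all in limma. AQP3 did not pass without the filter (adjusted p = 0.0533), with averaged probe sets (0.153) or without the trend (0.194), again in limma. With averaged probe sets the changes were -0.78 for NIBAN3 and 1.06 for AQP3.

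Of the other genes, AFF3 had 12.2 in Z-138 NTC with doxycycline and 29.7 without it (-1.11 ± 0.26, SE, limma adjusted p = 0.0694; -0.10 with averaged probe sets). ENPP2 had 926.2 and 498.4 (0.89 ± 0.20, SE, limma adjusted p = 0.0637). THSD7A had 4.0 and 11.9 (-1.09 ± 0.43, SE, limma adjusted p = 0.183), both under 12.55. These 3 values did not pass, and each also lay opposite to the NIKsh change.

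The remaining 5 genes differed by less than 0.5 in Z-138 NTC. UNC13C had 1925.5 with doxycycline, against 1871.5 without it, and SIM1 had 89.8, against 73.9. PTPN3 had 211.5, against 162.7, FGFR3 64.0, against 54.7, and RHEX 190.8, against 261.3. Another probe set turned the sign in RHEX (200.9, against 178.0), in SIM1 (67.9, against 71.5) and in UNC13C (982.8, against 1084.7). The direction of these genes in NTC is therefore not settled. UNC13C, at -3.37 in NIKsh and 0.04 in NTC, was the gene of the 10 whose Z-138 NTC arrays were closest to level.

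Thus 5 of the 10 genes had an NTC change of at least 0.5 in size in Z-138, where 30.7% of all genes did, and all 5 lay opposite to NIKsh, where 5.45% of all genes had such an opposite change. For comparison, 169 genes changed by at least 1 the same way in both Z-138 NIKsh cultures. Of these, 42 (24.9%) had an NTC change of at least 0.5 the opposite way, 35 had one the same way and 92 had a smaller one. The median size of the NTC change in Z-138 was 0.67 over the 10 genes and 0.32 over all genes tested. The NIKsh change minus the NTC change in Z-138, in which 0.589% of all genes passed limma, ranged in size over the 10 genes from 1.90 for FGFR3 to 4.52 for NIBAN3, and as it uses the NIKsh arrays it is a description.

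A measure of RNA quality also moved in Z-138, the 3′ over 5′ signal of the ACTB control probe sets. It was 6.34 in NTC with doxycycline, against 2.33 without it. In NIKsh#1 it was 4.62, against 2.86, and in NIKsh#2 5.09, against 2.92. It was thus higher with doxycycline in all 3 Z-138 cultures. In Maver-1 it was 4.32, against 4.68, in NIKsh#1, 3.80, against 3.66, in NIKsh#2 and 4.43, against 6.88, in NTC, the highest of the 12 arrays being untreated Maver-1 NTC. The same ratio of GAPDH was 2.00, against 1.17, in Z-138 NTC, 1.36, against 1.30, in NIKsh#1 and 1.83, against 1.15, in NIKsh#2, and it ran from 1.42 to 2.39 in Maver-1. The part of RNA quality in these results was not tested.

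In Maver-1 NTC, 0 genes passed limma (0% called, 126 at an unadjusted p under 0.05). The 10 genes lay between -0.13 for NIBAN3 and 0.63 for THSD7A, and 9 of them were under 0.5 in size, where 6.36% of all genes were at or above it. The signals of AFF3 were 757.6 with and 699.0 without doxycycline, and those of AQP3 427.2 and 388.4. FGFR3 had 54.2 and 44.9 and THSD7A 18.2 and 10.7, so both were higher with doxycycline in all 3 Maver-1 cultures, NTC included. The NTC change of THSD7A, close to the floor, was no smaller than its mean change of 0.59 in Maver-1 NIKsh. Z-138 and Maver-1 each had 1 NTC culture, so the difference of the NTC effect between the lines was poorly measured. In limma 0 genes passed (0% called, 1628 at an unadjusted p under 0.05), with changes in Z-138 and Maver-1 of -2.21 and -0.13 for NIBAN3 and 2.29 and 0.14 for AQP3 (adjusted p = 0.181 each). The fit without 1 of the NIKsh cultures called 232 to 651 genes in this contrast, so no likeness of the lines can be read from it.

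**Figure D3:**
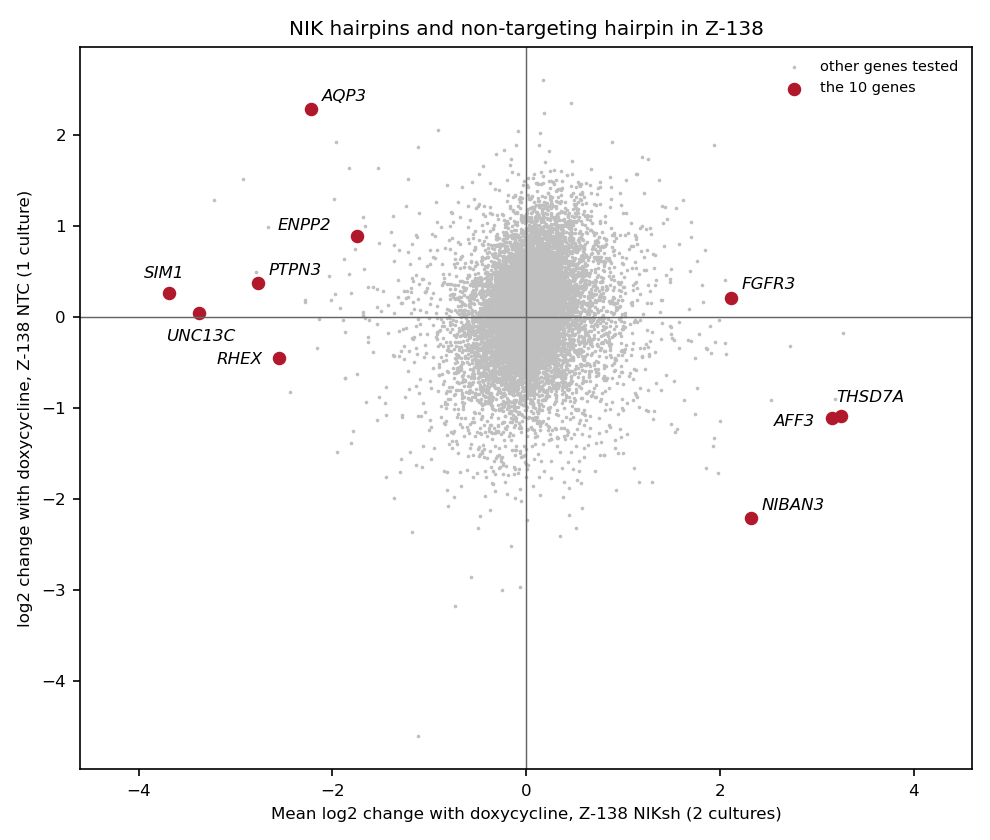
Log2 change with doxycycline in Z-138 NTC (vertical, 1 culture) against the mean of the 2 Z-138 NIKsh cultures (horizontal) for 11548 genes, with the 10 genes in red. NIBAN3 lies at 2.32 and -2.21 and AQP3 at -2.22 and 2.29, in opposite corners, and UNC13C lies next to the horizontal line.

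The untreated arrays show how far the lines differed before knockdown. Untreated Z-138 and untreated Maver-1 were compared over 3 cultures each, a contrast in which 60.2% of all genes passed limma. AFF3 had signals of 38.8, 43.6 and 29.7 in Z-138 and 868.6, 898.2 and 699.0 in Maver-1 (NIKsh#1, NIKsh#2 and NTC), a difference of -4.36 ± 0.16 (SE, limma adjusted p = 1.09e-10). NIBAN3 had 85.6, 164.4 and 80.1 in Z-138 and 1892.1, 1987.0 and 1844.4 in Maver-1, a difference of -4.15 ± 0.20 (SE, limma adjusted p = 1.68e-09). AQP3 was lower in Z-138 by -2.09 ± 0.14 (SE, limma adjusted p = 4.75e-08) and ENPP2 by -0.66 ± 0.09 (SE, limma adjusted p = 3.21e-05), with no overlap between the lines in either gene.

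RHEX was higher in untreated Z-138, with 301.7, 306.1 and 261.3, against 87.4, 76.9 and 70.7 in Maver-1, a difference of 1.85 ± 0.14 (SE, limma adjusted p = 1.1e-07). UNC13C was also higher, by 2.25 ± 0.54 (SE, limma adjusted p = 0.00268). Its untreated Maver-1 signals were 713.8 in NIKsh#1, 800.9 in NTC and 102.2 in NIKsh#2, so that the NIKsh#2 culture stood apart before doxycycline. Without Maver-1 NIKsh#2 the difference of UNC13C was 1.30. PTPN3 (-0.28 ± 0.15), THSD7A (0.47 ± 0.26) and FGFR3 (0.20 ± 0.17) did not pass (limma adjusted p of 0.111, 0.141 and 0.308, errors SE). A second probe set of PTPN3 was lower in untreated Z-138, at 18.1, 13.1 and 15.1, against 70.8, 58.1 and 81.5. SIM1 was split off by its Maver-1 level, and its untreated signals of 49.4, 52.1 and 73.9 in Z-138 and 0.4, 0.8 and 0.6 in Maver-1 are a description.

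With doxycycline, Z-138 NIKsh lay closer to untreated Maver-1 NIKsh in 5 of the 10 genes and farther from it in the other 5. AFF3 was -1.17 from untreated Maver-1 NIKsh with doxycycline and -4.33 without it, and NIBAN3 -1.68 and -3.995. SIM1 was at 0.22 and 3.90, UNC13C at -0.61 and 2.77, and RHEX at -0.69 and 1.85, the last 2 passing to the other side. FGFR3 was at 2.28 with doxycycline and 0.17 without it, PTPN3 at -2.997 and -0.23, and ENPP2 at -2.40 and -0.66. AQP3 was at -4.32 and -2.10 and THSD7A at 3.89 and 0.64. UNC13C depends on the untreated Maver-1 NIKsh#2 culture that stood apart: against untreated Maver-1 NIKsh#1 alone it was at -1.99 with doxycycline and 1.38 without it, and 4 of the 10 genes were closer. The share of all genes that lay closer was not counted, so nothing is read from how many of the 10 did. The values share the untreated Z-138 arrays with the changes above and are descriptions.

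**Figure D4:**
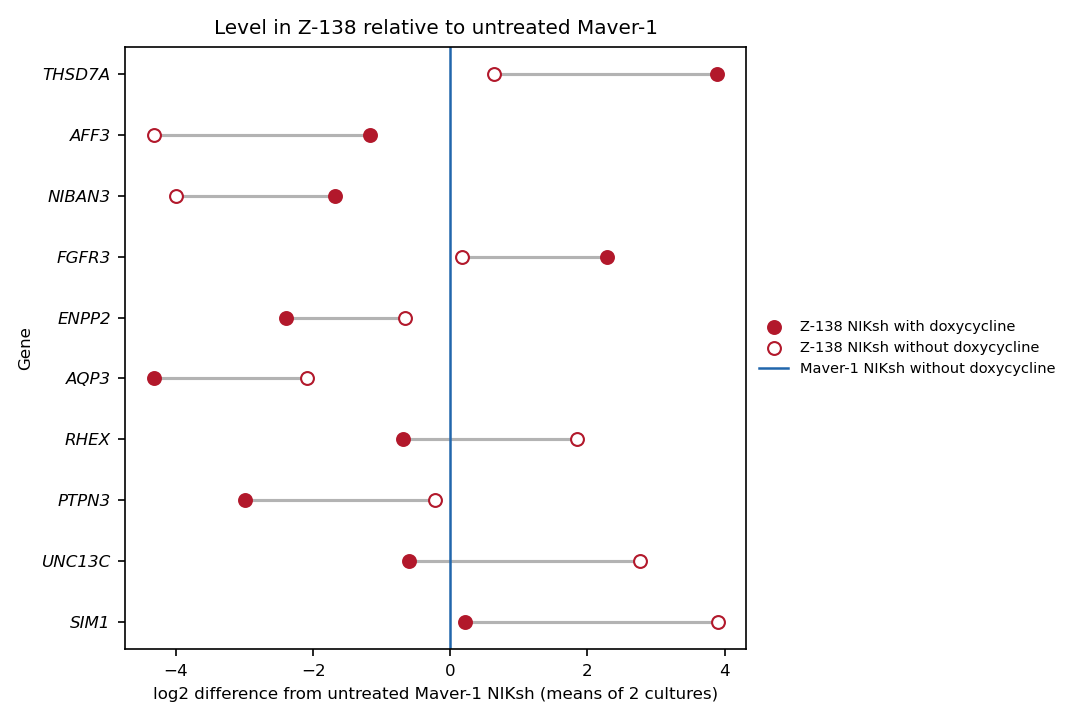
Level in Z-138 NIKsh with doxycycline (filled) and without it (open), as log2 difference from untreated Maver-1 NIKsh (blue line at 0), means of 2 cultures each. In AFF3, NIBAN3, SIM1, UNC13C and RHEX the filled mark is nearer the line, and in the other 5 genes the open mark is.

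Genes related to the 10 by family or pathway were read from listed sets. Of 32 paralogues, 29 were on the array and 13 were tested, and 0 passed limma in Z-138 NIKsh (2.14% of all genes passed, so that a count of 0 among so few says little), with a median change of 0.11 beside 0.03 over all genes. The largest values were UNC13D at -0.75, FGFRL1 at 0.56 and SIM2 at -0.50, and SIM2 differed between the hairpins (0.01 and -1.02). In Z-138 NTC these genes moved the same way, at -0.86, 0.39 and -1.26. UNC13D had signals of only 4.5 to 13.8 in Z-138. The other 10 ran from -0.21 for AFF2 to 0.44 for AQP11, with FGFR1 at 0.26, FGFR2 at -0.16, FGFR4 at 0.11, PTPN4 at -0.17 and ENPP4 at 0.20. In Z-138 NTC 0 of the 13 passed limma either. Of the 6 receptors of lysophosphatidic acid, the product of ENPP2, LPAR2 (0.05) and LPAR4 (0.12) were tested and did not pass. Of 7 genes of erythropoietin signalling, in which RHEX acts, 5 were tested, 0 passed and the median was -0.05. Among them EPOR, the receptor, had -0.05 and JAK2, its kinase, -0.04.

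Growth factor feedback genes, which signalling below FGF receptors and other receptor kinases switches on, were 13, of which 8 were tested. In Z-138 NIKsh 2 rose and 0 fell in limma, where 1.06% of all genes rose, with a median of 0.70 beside 0.03 over all genes, and 7 of 8 values were positive. ETV5, a transcription factor of the ETS family, had 597.4 and 434.0 with doxycycline, against 72.8 and 76.7 without it, and rose by 2.72 ± 0.44 (SE, limma adjusted p = 0.0177). DUSP5, a phosphatase that holds ERK inactive, had 775.7 and 475.6, against 206.1 and 171.0, and rose by 1.68 ± 0.23 (SE, limma adjusted p = 0.00841). Without the intensity trend neither passed (limma adjusted p of 0.133 for ETV5 and 0.0594 for DUSP5).

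The sprouty genes SPRY1 and SPRY2, inhibitors of receptor kinase signalling, had 0.67 and 0.88 and did not pass, and DUSP6 had -0.01. In Z-138 NTC 0 of the 8 passed, with ETV5 at -0.31 and DUSP5 at 0.09. In Maver-1 NIKsh 0 passed and the median was 0.06. There ETV5 lay between 0.6 and 6.8 and SPRED1 between 0.8 and 4.9 on all 6 arrays, at the floor. SPRED2 (3.7 to 19.7) and DUSP6 (4.1 to 21.9) were under 12.55 on most of these arrays. The Maver-1 median thus includes genes whose change cannot be read, and no lack of response is read from it. The change in Z-138 NIKsh minus that in Maver-1 NIKsh was 1.60 ± 0.33 for DUSP5 and did not pass (SE, limma adjusted p = 0.195). For ETV5, at the floor in Maver-1, that difference cannot be read.

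Over the whole array, 83 genes (0.719%) changed by at least 1 the same way in both Z-138 NIKsh cultures and by under 0.5 in both Maver-1 NIKsh cultures, 52 higher and 31 lower. AFF3, NIBAN3, AQP3 and ENPP2 were the 4 members among them. The mirrored pattern, at least 1 in both Maver-1 NIKsh cultures and under 0.5 in both Z-138 ones, was met by 8 genes (0.0693%). The limits were the same in both lines, although the changes over all genes spread more in Z-138. Their SD was 0.46 and 0.51 in Z-138 NIKsh#1 and NIKsh#2, and 0.30 and 0.35 in Maver-1. Of the 83, 43 had an NTC change under 0.5 in Z-138, and 0 of the 4 members did. Ranked by the smaller of the changes of the 2 Z-138 NIKsh cultures, all 10 genes lay among the first 36 of all genes, with ENPP2 at place 36. The place of SIM1 within them is not settled, since its treated signals were at the floor. The choice had no stated limit, and the nearest genes around ENPP2 were CD80 (-2.34 and -1.69), a ligand that costimulates T cells, and FRY (1.68 and 2.30).

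The non-members with this pattern and the most negative values were IL10, an anti-inflammatory cytokine, at -3.15 and -2.69 in Z-138 NIKsh#1 and NIKsh#2, and CCDC141 at -1.58 and -2.16. CD40, through which T cells help B cells, had -2.32 and -1.43, PRF1, the pore protein perforin, -1.41 and -1.58, and ABCG1, a cholesterol exporter, -1.88 and -1.38. The most positive were RASGEF1B, an exchange factor for Ras family proteins, at 2.49 and 2.57, KLHL14 at 1.99 and 1.89, and NMT2, which attaches myristate to proteins, at 2.23 and 1.87. RGS2, which turns off G protein signals, had 1.86 and 1.76, and ATP1B1, a subunit of the sodium pump, 1.72 and 1.99. In Z-138 NTC KLHL14 (-1.33 ± 0.23, SE) and ATP1B1 (-1.66 ± 0.28, SE) fell (limma adjusted p = 0.0468 each), against their NIKsh direction as NIBAN3 did. Both rest on the same pair of arrays and were picked by their NIKsh changes, so their error is not free of the choice either. Neither passed without the intensity trend (limma adjusted p = 0.194 each). Nor did either pass with a pseudocount of 16, without the filter, with quantile normalization or with averaged probe sets (limma adjusted p from 0.0526 to 0.298). Without the culture block KLHL14 passed (limma adjusted p = 0.0472) and ATP1B1 did not (0.12). IL10 had 1.52 ± 0.44 in Z-138 NTC and did not pass (SE, limma adjusted p = 0.103). CD40 had -0.67 there, the same way as in NIKsh, and RASGEF1B -0.91, the opposite way, and neither passed. The other genes named here were under 0.5 in size in Z-138 NTC. CD40 was also lower in Maver-1 NIKsh#1 and NIKsh#2 (-0.47 and -0.335), not far inside the limit of 0.5.

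Across the 12 arrays, the genes with the most similar log2 signal were ROR1, a receptor tyrosine kinase, for both AFF3 (Pearson r = 0.986) and NIBAN3 (0.993). KLHL14 was among the 3 most similar to each of them (0.985 and 0.989). SIM1 was most like EPB41L2 (0.98), PTPN3 like ELL2 (0.987), AQP3 like FARP2 (0.972) and ENPP2 like DOCK10 (0.982). TNFAIP3, an inhibitor of NF-kB, and HLA-DOB, an MHC class II chain, were among the 3 most similar genes of both SIM1 (0.969 each) and RHEX (0.95 and 0.954). UNC13C had the lowest best match, ZNF473 at 0.922. The arrays share lines and cultures, so a difference between the lines alone can give a high r, and these values are descriptions.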

How the data were processed

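Per the labels, total RNA was amplified before biotin was added. The deposited value of each probe set is an intensity on a linear scale, made by the authors with MAS5, per the submitters' processing notes. Each array had a mean of 150.02 once the lowest and highest 2% of its 54675 probe sets were removed, so a common scaling had been applied, and none was added. Array medians differed by up to 1.33-fold, and the number of arrays limits the precision. The platform annotation gave 1 symbol for 41091 probe sets and several for 1801, and the other 11783 were controls or unnamed.

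Intensities were taken to log2(signal + 3). The probe set with the highest mean stood for its gene, and genes with a mean below 12.55, which is the median of the 12 array medians, were not tested. limma 3.58.1 (R 4.3.3) fitted all arrays with an intensity trend, a doxycycline effect per line and knockdown, and the culture as a fixed block, since each construct-carrying line was grown under both conditions (2 residual degrees of freedom). Untreated arrays were compared between lines without a block. Tests were two-sided, with Benjamini-Hochberg adjustment over 11548 genes at 0.05. As a check of the pairing, deviations from group means were correlated across genes between arrays of the same hairpin, which gave -0.038 for Z-138 and 0.202 for Maver-1. The labels do not name separate cultures per hairpin beyond these. In the doxycycline contrasts the p-values cover the spread between the effects of the 2 NIK hairpins within each line. Between untreated lines they cover the spread between the cultures of a line. Part of either spread may be technical. The fit was tested on simulated data. Tables used pandas 2.3.3, and plots matplotlib 3.10.9, under Python 3.11.15.

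The 10 genes and the lists were chosen with earlier results of these data known. The genes named are the 10, MAP3K14, lists of paralogues and of 3 pathways, the 5 genes of each direction with the strongest Z-138 pattern among the others, the neighbours of ENPP2 in rank and the 3 most similar genes of each member. Alternatives changed the pseudocount, filter, normalization, probe set choice, trend, block and cultures used. The NTC effect in Maver-1 and its difference from Z-138 were added after the data were seen.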

Additional observations from a re-analysis of the deposited data

Results flagged for a closer look

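The doxycycline effect of the NIK hairpins passed limma as different between the lines in 6 of the 10 genes, where 0.121% of all genes did. The Z-138 effect minus the Maver-1 effect was 3.04 for AFF3, 2.20 for NIBAN3, -4.04 for SIM1, -2.66 for UNC13C, -2.18 for AQP3 and -1.60 for ENPP2. The genes had been chosen on this difference, and SIM1 passed the filter through Z-138 alone, so these values are descriptions and no test. In this contrast 0 genes passed without the intensity trend and 1 with averaged probe sets. No group held 4 arrays, and single arrays were not tested for standing apart.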

How the results depend on the processing

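The counts of genes that passed depended on the fit. Many of the alternatives could not alter the members' own mean changes. In Z-138 NIKsh 247 genes passed, and 164 without the filter, 118 with averaged probe sets and 23 without the intensity trend. In Z-138 NTC 124 passed, and 15 with a pseudocount of 16, 8 without the filter, 15 with quantile normalization, 1 with averaged probe sets and 0 without the trend (2086 at an unadjusted p under 0.05). For the difference of the NIKsh effect between lines 14 passed, and 9 without the filter, 1 with averaged probe sets and 0 without the trend (941 unadjusted). For NIKsh minus NTC in Z-138 68 passed, and 44, 15 and 0 (1546 unadjusted) under the same 3 settings. Without the culture block the count was 200 in Z-138 NTC, 220 in Z-138 NIKsh, 10 for the difference between lines, 80 for NIKsh minus NTC and 0 in Maver-1 NIKsh (421 unadjusted); of the members' NTC calls in Z-138 it ended that of NIBAN3. Construct as a block between untreated lines gave 6561 in place of 6956.

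Leaving out 1 culture gave 248 to 918 genes in Z-138 NIKsh, 0 to 42 in Maver-1 NIKsh, 9 to 423 for their difference, 115 to 1907 in Z-138 NTC, 68 to 1110 for NIKsh minus NTC, 6240 to 6790 between untreated lines, 0 to 3 in Maver-1 NTC and 232 to 651 for the NTC effect between lines. Leaving out any 1 of the 4 NIKsh cultures raised each of these counts except that between untreated lines by over 1.5 times. In Z-138 NTC the count was 1907 and 1893 without Z-138 NIKsh#1 and NIKsh#2, and 745 and 719 without Maver-1 NIKsh#1 and NIKsh#2. Without Z-138 NTC the difference of the NIKsh effect between lines had 9. Leaving out a NIKsh culture leaves 1 residual degree of freedom, and the cause of the higher counts was not tested. The NTC change of ENPP2 in Z-138 passed without any 1 of these 4 NIKsh cultures (adjusted p of 0.00334 to 0.0464) and that of AFF3 without either Z-138 one (0.00388 and 0.00406). The 83 genes with the pattern became 47 with averaged probe sets. In Z-138 NTC the sign of UNC13C turned with quantile normalization (-0.0383) and averaged probe sets (-0.0578), and that of RHEX with averaged probe sets (0.10). The changes of the 10 genes in Z-138 NIKsh kept their direction under all alternatives run. They had been chosen on that direction in both cultures, and many alternatives leave the mean change as it was, so nothing is read from this. The untreated differences between lines also kept their direction. Of these PTPN3 alone crossed the threshold (-1.13, limma adjusted p = 7.14e-05, with averaged probe sets).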
